A study of Mus musculus with 67 samples.

Results

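The 10 genes followed here encode the AP-1 and Egr immediate early transcription factors. They are Fos, Fosb and Fosl2 of the Fos family, Jun, Junb and Jund of the Jun family, the related factor Atf3, and the zinc finger factors Egr1, Egr2 and Egr3. They were chosen by gene symbol, and all 10 were found among the 24421 genes of each of 3 mouse RNA-seq tables. The tables hold 67 libraries of sorted monocytes and their precursors in 28 groups. The 7-week table has 25 libraries from C57BL/6 mice. Its marrow groups are MDP (monocyte and dendritic cell progenitors, 4 libraries), cMoP (common monocyte progenitors, 4), Ly6C+ monocytes (3) and Ly6C- monocytes (4). Its blood groups are Ly6C+ (4), Ly6Cint (3) and Ly6C- (3) monocytes. The knockout table has 16 libraries, 2 per group. Its blood cells came from 16-week mice of mixed background, as wt Ly6C+, Ly6Cint and Ly6C- and as ko Ly6C+ and Ly6Cint cells, where the gene knocked out is C/EBPb by the title of the series. Its marrow MDP, cMoP and Ly6C+ cells came from 8-week C57BL/6 mice, so age and strain cannot be told apart from tissue there, and blood was not tested against marrow in that table. The transfer table has 26 libraries from 8-week C57BL/6 mice, 2 per group. It holds marrow Ly6C+ monocytes before transfer, transferred cells (grafts) in blood and spleen at 24, 36 and 48 h, and host Ly6C+, Ly6Cint and Ly6C- cells at 24 h in both tissues, which their titles sort by Gr1 as P, Int and M. Marrow was crushed and enriched on CD115, as was the blood of the 7-week and knockout tables, before flow sorting. Blood of the transfer table was sorted after ficoll and spleen after lysis of red cells with ACK, so in that table tissue and preparation cannot be told apart. The labels do not say whether libraries of a group came from separate animals, and a p-value here could reflect technical spread alone. Of the 2 blood graft libraries at each time 1 carries the label AC and the other B, while spleen grafts carry B and C. Whether AC stands for pooled material is not given in the sources used here. How donor cells were told from host cells is not given in the sources used here.

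Fos and Jun family proteins pair through leucine zippers to form AP-1, which binds TGANTCA sites with C or G at N. Jun proteins can also pair with each other, whereas Fos proteins need a Jun partner, and Atf3 pairs with Jun proteins or with itself. Egr factors bind GC-rich sites through zinc fingers and are held in check by the Nab corepressors. Most of these genes are transcribed within minutes of a stimulus, without new protein synthesis, and their mRNA is short-lived. In the myeloid lineage Egr1 and Egr2 are known for a part in macrophage differentiation, AP-1 for the induction of inflammatory genes, and Atf3 for restraint of them. Immediate early genes are also known to respond to the handling of cells.

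RefSeq promoter entries on build GRCm38.p6 were found for 8 of the 10 members. Egr1 and Egr3 were not matched. The expression files use mm9, so these coordinates are not theirs. The 3 promoters printed here belong to the members whose mRNA was lower in spleen than in blood, without overlap, in all 6 pairs of groups described below. How many of all genes were so was not counted. Each line gives the 250 bases before the start, 5′ to 3′ on the gene's strand, with matches of the searched motifs in capitals.
Fos, chr12:85473640-85473889, plus strand: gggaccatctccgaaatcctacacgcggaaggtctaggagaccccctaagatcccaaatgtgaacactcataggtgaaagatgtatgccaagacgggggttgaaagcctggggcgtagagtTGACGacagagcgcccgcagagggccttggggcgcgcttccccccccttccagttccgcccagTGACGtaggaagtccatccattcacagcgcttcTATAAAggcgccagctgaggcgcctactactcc
Jun, chr4:95052223-95052472, minus strand: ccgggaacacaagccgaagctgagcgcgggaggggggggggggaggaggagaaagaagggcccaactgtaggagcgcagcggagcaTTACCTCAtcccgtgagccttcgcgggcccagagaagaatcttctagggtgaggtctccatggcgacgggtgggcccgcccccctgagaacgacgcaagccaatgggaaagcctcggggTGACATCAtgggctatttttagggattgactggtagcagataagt
Junb, chr8:84978749-84978998, minus strand: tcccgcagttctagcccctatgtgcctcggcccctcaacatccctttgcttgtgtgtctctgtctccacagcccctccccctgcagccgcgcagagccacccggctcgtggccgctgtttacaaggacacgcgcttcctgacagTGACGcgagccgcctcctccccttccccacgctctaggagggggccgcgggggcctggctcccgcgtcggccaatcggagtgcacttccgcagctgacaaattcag
Both strands were searched for 8 motifs: the cyclic AMP response element TGACGTCA, its core TGACG (part of the full element, and counted there too), the AP-1 site TGANTCA, TGACATCA and TTACCTCA (both known from the Jun promoter itself), the Egr site GCGNGGGCG, the CArG box bound by serum response factor, and TATAAA. The Fos window held TGACG at -129 to -125 and at -66 to -62 from the start, and TATAAA at -33 to -28. In the Jun window TTACCTCA lay at -164 to -157 and TGACATCA at -45 to -38. The Junb window held TGACG at -106 to -102. Of 27025 promoters of the same length, 17.9% held TGACG, 13% TATAAA, 3.02% TGACATCA and 0.714% TTACCTCA. The full element was in 1.62%, TGANTCA in 6.87%, the Egr site in 4.65% and the CArG box in 1.40% of them. The search for TGANTCA took any base at N, so its share also counts sequences other than the AP-1 site. Fosb and Fosl2 each held GCGGGGGCG, a match to the Egr site. Egr2 has 5 start sites, and start 1, the only one counted in these shares, held no CArG box. Its start 2 held the CArG box CCTTTTTTGG. Starts 3, 4 and 5 have overlapping windows that held the same CArG box, CCATATATGG. Jund held no match, which says only that these letters are not in its window.

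In the 7-week and knockout tables whole reads could be recovered from the spacing of the values within each library. The listed genes then held 577690 to 3643327 reads per library of the 7-week table and 942751 to 5478761 in the knockout table. In these 2 tables values were divided to reads per 1000000 (RPM), taking each library as scaled to a total of 10000000. That total was assumed, and it exceeds the sum of the listed genes in every library. On this scale 3 reads correspond to 0.58 to 3.34 RPM and 0.44 to 2.50 RPM in the libraries of the 2 tables. The transfer table holds rounded values scaled to a common total, and its depth is unknown. Its RPM are per 1000000 of the summed values of the listed genes, so levels are not set against each other across tables. Genes above 0 numbered 8278 and 8109 in 24 h blood, 8761 and 7734 in 48 h blood and 8396 and 8614 in 48 h spleen grafts. Other graft libraries had 9354 to 10970, host libraries 10389 to 11303 and pretransfer libraries 11719 and 11574. Replicates correlated at 0.907 to 0.987, 0.940 to 0.983 and 0.803 to 0.979 across genes in the 7-week, knockout and transfer tables. In the transfer table graft pairs were at 0.803 to 0.917 and the other pairs at 0.924 to 0.979. No replicate pair agreed within sampling noise where reads could be recovered. Ly6c2, which encodes the sorting marker, followed the labels. Its means were 4193, 122, 2709, 273 and 30.05 RPM in marrow Ly6C+, marrow Ly6C-, blood Ly6C+, blood Ly6Cint and blood Ly6C- cells of the 7-week table. Genes at 2 RPM or more in at least 3 libraries of the 7-week table, or in at least 2 of the other tables, were tested. Egr2 and Egr3 did not pass in the 7-week table and Egr3 did not pass in the knockout table, which left 8, 9 and 10 members. All changes are log2 ratios of RPM + 1 with their standard errors (SE) from limma, called at a Benjamini-Hochberg adjusted p under 0.05 over all genes of a table.

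Fos mRNA rose at each step of marrow differentiation. It was 9.65, 7.16, 6.85 and 9.73 RPM in MDP, 18.5, 16.5, 15.2 and 15.4 RPM in cMoP and 33.2, 65.7 and 55.1 RPM in marrow Ly6C+ monocytes. No value of a later stage overlapped those of the stage before. From MDP to cMoP the change was 0.91 ± 0.25 (adjusted p = 0.0144). Fos was the only one of the 8 members tested that was called there, and 5.2% of all genes tested rose. That call was lost without MDP replicate 2 or 3 (0.85 and 0.83) or cMoP replicate 1 (0.85). Members at an unadjusted p under 0.05 numbered 3.

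From cMoP to marrow Ly6C+ monocytes 5 of 8 members rose, where 15.3% of all genes did. The change of Fos was 1.54 ± 0.27 (adjusted p = 3.65e-05). Fosl2, a Fos family member without the transactivation domain of Fos, was 9.87, 10.7, 11.2 and 7.97 RPM in cMoP and 42.5, 36.5 and 26.1 RPM in Ly6C+ cells. The groups were apart, with a change of 1.70 ± 0.31 (adjusted p = 7.37e-05). Atf3, which encodes a bZIP factor known as a repressor, was near the reading limit in cMoP at 0, 0.290, 1.51 and 1.65 RPM and reached 20.8, 12.8 and 15.9 RPM. This was the largest change of a member at this step, 3.33 ± 0.37 (adjusted p = 2.15e-08). Junb, a Jun family member, was 38.1, 24.1, 41.2 and 32.4 RPM and then 57.1, 69.9 and 104 RPM, a change of 1.14 ± 0.25 (adjusted p = 0.000648). Jun was 7.45, 6.38, 13.9 and 7.42 RPM and then 13.1, 17.02 and 26.8 RPM, so the groups overlapped in 1 library each. Its change of 1.03 ± 0.35 (adjusted p = 0.0198) was not called without Ly6C+ replicate 4 (0.76) or cMoP replicate 2 (0.91). In the 8-week marrow of the knockout table, which was not tested, Jun went the other way, with 19.3 and 23.7 RPM in cMoP and 5.52 and 12.5 RPM in Ly6C+ cells. Jund stayed under the threshold at 1.08 ± 0.48 (adjusted p = 0.0817).

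Other genes of the pathway were counted by lists. Of 23 tested genes of a list of 26 other immediate early genes, 14 rose and 4 fell from cMoP to Ly6C+ cells, with a median of 1.17 against -0.17 for all genes tested (-0.07 on quantile scaling). Klf6, Klf2 and Btg2, which encode 2 Krüppel-like factors and an antiproliferative protein, rose by 2.45, 4.12 and 2.80. Myc, which encodes a growth factor-responsive activator, fell, with a change of -3.54. Among 27 kinases and regulators that induce immediate early genes, 9 rose and 1 fell, with a median of -0.01. Of 21 tested bZIP relatives and partners 6 rose and 1 fell, Batf3 by 3.39. Progenitor marker genes moved with this step: 7 of 8 fell, and their summed level went from 11935 to 12785 RPM in cMoP to 1672 to 1819 RPM in Ly6C+ cells. Their part in the result was not tested. As these are bulk samples, fewer cells of a type and less RNA per cell cannot be told apart here or below.

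**Figure D1:**
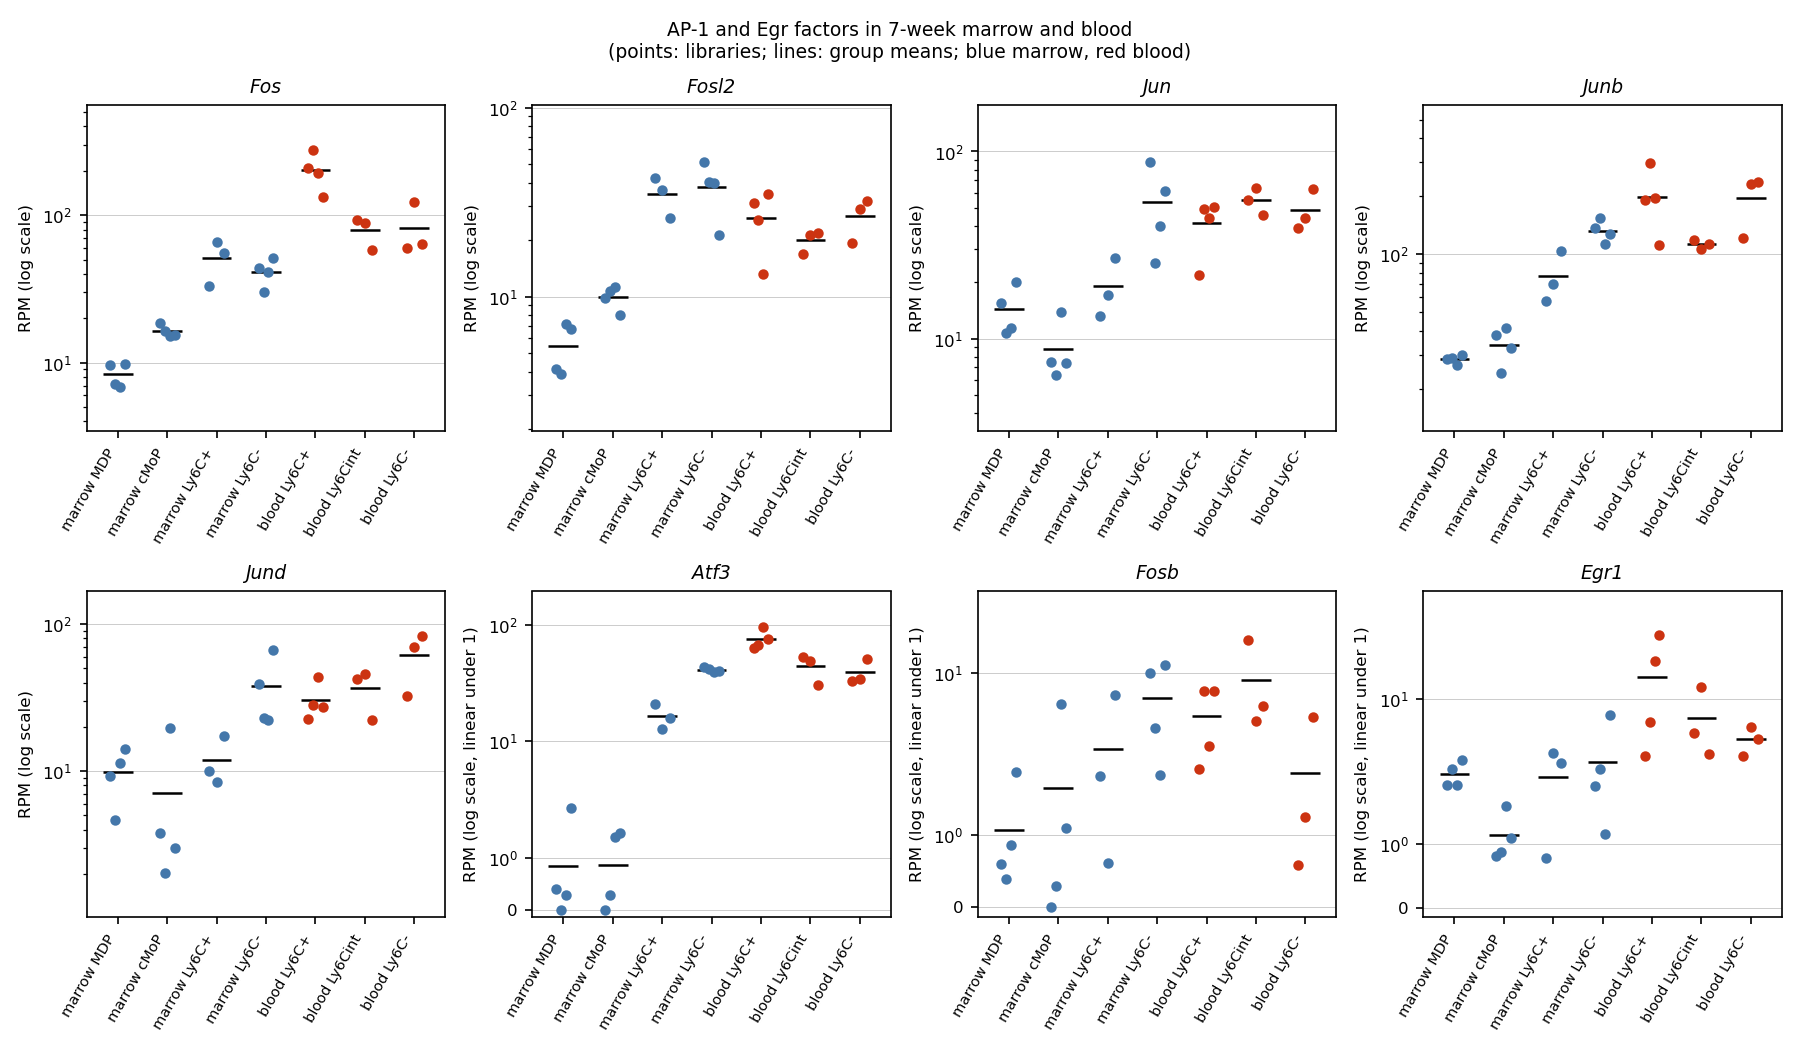
RPM of 8 factors in each of the 25 libraries of the 7-week table, by group (x axis) on logarithmic y axes that are linear under 1 where a panel holds values under 1. Points are libraries, lines are group means, and colours mark marrow and blood. All 4 blood Ly6C+ libraries lie above all other libraries for Fos, between 134 and 277 RPM.

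Blood Ly6C+ monocytes held more mRNA of 6 of the 8 members than marrow Ly6C+ monocytes, where 7.32% of all genes tested rose. Fos went from 51.3 ± 16.6 RPM (SD, n = 3) to 203 ± 59.1 RPM (SD, n = 4). The 4 blood libraries were at 208, 277, 192 and 134 RPM, above every marrow library, and the change was 1.97 ± 0.27 (95% interval 1.42 to 2.52, adjusted p = 1.48e-06). Fosb and Fosl2 did not pass the test. Fosb was 2.32, 0.608 and 7.25 RPM in marrow and 2.53, 7.68, 3.52 and 7.74 RPM in blood, on at most 21 reads per library, and its change was 0.74 ± 0.62 (adjusted p = 0.410). Fosl2 was at 31.4, 25.4, 13.2 and 34.8 RPM in blood, a change of -0.46 ± 0.31 (95% interval -1.10 to 0.18, adjusted p = 0.296).

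All 3 Jun family genes passed the test in the same comparison. Junb was 192, 297, 197 and 112 RPM in blood, each above the highest marrow library, with a change of 1.32 ± 0.25 (adjusted p = 0.000217). Jun was 21.8, 49.2, 44.02 and 50.3 RPM in blood. Its lowest blood library lay inside the marrow range, and its change was 1.07 ± 0.35 (adjusted p = 0.0225). Jund, the Jun gene known for steadier expression, was 10.04, 8.51 and 17.4 RPM in marrow and 22.8, 28.4, 44.02 and 27.5 RPM in blood. The groups were apart, with a change of 1.31 ± 0.48 (adjusted p = 0.0465). The Jun call was lost without marrow replicate 1 or 3 (0.85 and 1.02) or blood replicate 2 or 4 (0.96 and 0.95), with array weights (adjusted p = 0.0580) and with the compared groups alone (adjusted p = 0.0544). The Jund call was lost without marrow replicate 1 or 3 (1.22 and 1.11) or blood replicate 2, 3 or 4 (1.33, 1.12 and 1.34), and with a pseudocount of 0.25 RPM, no filter or array weights (adjusted p = 0.0624, 0.0883 and 0.178).

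Atf3 was 63.2, 67.6, 96.9 and 75.2 RPM in blood Ly6C+ cells, with no overlap with marrow, and rose by 2.14 ± 0.37 (adjusted p = 5.32e-05). Egr1, the Egr factor read in every library, was 0.772, 4.26 and 3.62 RPM in marrow and 4.05, 6.91, 18.5 and 27.9 RPM in blood. The 4 blood libraries spread over a wide range and the lowest lay below the highest marrow library. The change of Egr1 was 1.81 ± 0.50 (adjusted p = 0.00760), and the call was lost without marrow replicate 1 (1.31) and with the compared groups alone (adjusted p = 0.0610). Of all genes called in this comparison 28.2% were higher in blood, and the median of all genes tested was -0.19. After quantile scaling, which moved that median to 0.06 and that share to 51.6%, Fos was at 2.04, Junb at 1.37 and Atf3 at 2.32.

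Of the other immediate early genes, 13 of 23 rose and 1 fell between marrow and blood Ly6C+ cells, with a median of 0.67. Dusp1, a phosphatase of MAP kinases, went from 9.90 to 137 RPM (3.73 ± 0.32, adjusted p = 5.87e-10). Nr4a1, Socs3 and Klf2, which encode an orphan nuclear receptor, a cytokine signalling inhibitor and a Krüppel-like factor, rose by 2.89, 4.04 and 2.44. Klf4, a Krüppel-like factor of monocyte differentiation, was the one that fell (-1.17). The kinases and regulators upstream did not move as a group, with 2 of 27 higher and 2 lower. Of 4 tested Egr partners 2 fell, the corepressor Nab1 (-0.74) and the coactivator Ep300 (-1.15). Of all 11373 genes tested 833 rose and 2126 fell here (1461 and 1370 on quantile scaling). Among 15 heat shock and stress genes 1 rose and 2 fell. Progenitor and neutrophil markers were lower in blood: their sums were 1672 to 1819 and 423 to 577 RPM in marrow Ly6C+ cells and 110 to 408 and 84.5 to 194 RPM in blood Ly6C+ cells. Of the 8 progenitor genes 5 fell, of the 12 neutrophil genes 4, and 1 of the 12 neutrophil genes was at 0 in all blood libraries. Tissue macrophage markers were higher in blood, 3 of 8, with sums of 171 to 279 RPM in marrow and 287 to 596 RPM in blood Ly6C+ cells. What these cells add to the result was not tested.

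In Ly6C- cells the same step was smaller for Atf3. Marrow Ly6C- cells were at 43.3, 41.8, 39.8 and 40.04 RPM and blood Ly6C- cells at 33.01, 34.1 and 51.4 RPM, with a change of -0.09 ± 0.37 (95% interval -0.84 to 0.66). The difference between the Ly6C- and the Ly6C+ step was -2.23 ± 0.52 (adjusted p = 0.00308), the one member called in this test of 8, where 3.53% of all genes were lower. Fos was 43.8, 30.1, 40.99 and 51.2 RPM in marrow and 60.2, 123 and 63.4 RPM in blood Ly6C- cells. Those groups did not overlap, but the change of 0.92 ± 0.27 missed the threshold (adjusted p = 0.0584), and so did its difference from the Ly6C+ step (-1.05 ± 0.38, adjusted p = 0.0515). By limma 0 of 8 members were called between blood and marrow Ly6C- cells, where 2.54% of all genes were. Members at an unadjusted p under 0.05 numbered 2 there, and edgeR and DESeq2 on the recovered reads each called 1. The median of all genes was 0.28 in the test of the difference, with 80.2% of the called genes higher, and quantile scaling brought these to -0.05 and 53.5%. On that scaling Atf3 was at -2.52 and 5 of 8 members were called. For the Ly6C- step the share higher was 76.5% as deposited and 63.3% on quantile scaling.

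Within marrow, Ly6C- monocytes held more mRNA of all 3 Jun genes and of Atf3 than Ly6C+ monocytes, while Fos did not pass the test. The 4 of 8 members that rose compare with 11% of all genes tested. Jun was 13.1, 17.02 and 26.8 RPM in Ly6C+ and 88.1, 25.5, 39.8 and 61.2 RPM in Ly6C- cells. The lowest Ly6C- library lay just inside the Ly6C+ range, and the change was 1.36 ± 0.35 (adjusted p = 0.00224). Junb was 137, 154, 114 and 127 RPM in Ly6C- cells, each above all Ly6C+ libraries, with a change of 0.81 ± 0.25 (adjusted p = 0.0112). Jund was 39.3, 22.9, 22.3 and 66.7 RPM in Ly6C- cells, again apart, with a change of 1.49 ± 0.48 (adjusted p = 0.0145). Atf3 changed by 1.29 ± 0.37 (adjusted p = 0.00558), which was not called with a pseudocount of 0.25 RPM (adjusted p = 0.0766). Fos, at 43.8, 30.1, 40.99 and 51.2 RPM in Ly6C- cells, overlapped the Ly6C+ range, with a change of -0.27 ± 0.27 (95% interval -0.82 to 0.28). The Junb call was lost without Ly6C+ replicate 1 (0.62). The Jund call was lost without Ly6C- replicate 4 (1.18) or Ly6C+ replicate 1 or 3 (1.41 and 1.30), and with array weights (adjusted p = 0.0602).

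Here 16 of 23 other immediate early genes rose and 0 fell by limma, with a median of 1.28. Nr4a1 and Nfkbiz, of the IκB family of NF-κB regulators, rose by 4.37 and 3.82. Of the bZIP relatives 9 of 21 rose and 4 fell. The median of all genes was -0.28, and 27.5% of the called genes were higher (47.9% on quantile scaling, where Jun was at 1.69 and Junb at 1.10). Markers of other cells moved with these sorts. Of 8 tested tissue macrophage genes 7 were higher in marrow Ly6C- cells, where their sums were 732 to 980 RPM, and 2 of 4 erythroid genes were higher, with sums of 719 to 1852 RPM. Their part in the result was not tested.

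In 7-week blood Fos fell with loss of Ly6C. It was 203 ± 59.1 RPM (SD, n = 4) in Ly6C+ cells, 93.5, 88.01 and 57.8 RPM in Ly6Cint cells and 60.2, 123 and 63.4 RPM in Ly6C- cells. Neither of the last groups reached the lowest Ly6C+ library. The changes against Ly6C+ cells were -1.32 ± 0.27 for Ly6Cint (adjusted p = 0.000659) and -1.32 ± 0.27 for Ly6C- cells (adjusted p = 0.000522). The shares of all genes that fell in these comparisons were 19.2% and 10.5%. Junb was 119, 106 and 113 RPM in Ly6Cint cells and fell by 0.74 ± 0.25 (adjusted p = 0.0313), but 1 Ly6C+ library overlapped them. That call was lost without any of Ly6Cint replicates 1, 2 and 3 (-0.77, -0.69 and -0.74), without Ly6C+ replicate 2 or 3 (-0.52 and -0.71), and on quantile scaling (-0.45). In Ly6C- cells Junb was 122, 231 and 238 RPM, with a change of 0.00 ± 0.25 against Ly6C+ cells (95% interval -0.51 to 0.52).

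Jun showed no called change among the 3 blood sorts of the 7-week table. It was 21.8, 49.2, 44.02 and 50.3 RPM in Ly6C+, 55.1, 63.7 and 45.9 RPM in Ly6Cint and 38.8, 44.4 and 63.4 RPM in Ly6C- cells, so all 3 ranges overlapped. Atf3 was 53.4, 48.6 and 30.6 RPM in Ly6Cint cells, and its changes against Ly6C+ cells were -0.78 ± 0.37 and -0.93 ± 0.37 (adjusted p = 0.112 and 0.0722). Between Ly6C- and Ly6Cint cells limma called 0 of 8 members, where it called 8.87% of all genes, and 2 members had an unadjusted p under 0.05. edgeR and DESeq2 called 0 of them as well. All genes leaned low against Ly6C+ in Ly6Cint cells (median -0.21, 29.2% of called genes higher, 46.8% on quantile scaling) and high from Ly6Cint to Ly6C- cells (median 0.20, 81.8% higher, 52.4% on quantile scaling). On quantile scaling the fall of Fos was -1.01 in Ly6Cint and -1.22 in Ly6C- cells. The other immediate early genes did not follow Fos. Against Ly6C+ cells 12 of 23 rose and 1 fell in Ly6C- cells, with a median of 0.82, and Nr4a1 rose by 2.15 and Nfkbiz by 2.06. Of all 11373 genes tested 1121 rose and 1189 fell there. Markers of other cells moved with these sorts. In Ly6Cint cells 4 of 12 neutrophil genes fell, with sums of 11.1 to 246 RPM over its 3 libraries. From Ly6C+ to Ly6C- cells 4 of 12 neutrophil genes fell and 1 rose, with sums of 84.5 to 194 and 13.9 to 17.4 RPM, and 5 of 8 progenitor genes fell. B cell sums were 33.1 to 49.2 RPM in Ly6C+ and 66.6 to 84.8 RPM in Ly6C- cells, and 1 of 3 tested B cell genes rose. Tissue macrophage genes rose as well, 3 of 8, with sums of 287 to 596 and 574 to 858 RPM. Their part in the result was not tested.

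The wt blood of the knockout table repeated the fall of Fos and showed a rise of Jun. Fos was 589.7 and 383 RPM in Ly6C+, 189.7 and 108 RPM in Ly6Cint and 224 and 83.2 RPM in Ly6C- cells. From Ly6C+ to Ly6Cint cells it changed by -1.72 ± 0.45 (adjusted p = 0.0422), where 2.2% of all genes fell. Jun was 13.4 and 20.4, then 65.1 and 52.2, then 107 and 85.8 RPM in the same order of sorts, with no overlap between neighbours. It rose by 1.76 ± 0.33 from Ly6C+ to Ly6Cint cells (adjusted p = 0.00532), where 2.1% of all genes did. The Fos call was lost without any 1 of the 4 libraries (-1.32 to -2.13, Ly6C+ replicates 1 and 2 at -1.41 and -2.03, Ly6Cint replicates 1 and 2 at -2.13 and -1.32), and with the replicate numbers as a block, where 1 member was called instead of 2. The Jun call was lost without Ly6C+ replicate 1 (1.47) or Ly6Cint replicate 1 (1.60). From Ly6Cint to Ly6C- cells limma called 0 of 9 members, where it called 0.448% of all genes. Jun had the 1 unadjusted p under 0.05, with a change of 0.71 ± 0.33, and edgeR and DESeq2 called 0.

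Loss of C/EBPb came with more Fosb mRNA in Ly6Cint monocytes, and with no other called change among the members. Cebpb itself was 804 and 693 RPM in wt and 115 and 57.2 RPM in ko Ly6C+ cells (-3.19 ± 0.38, adjusted p = 0.000551). In Ly6Cint cells it was 1734 and 1242 RPM in wt and 186 and 67.1 RPM in ko (-3.70 ± 0.38, adjusted p = 4.82e-05), so the values followed the labels. Fosb, a Fos family activator, was 4.98 and 1.89 RPM in wt and 14.99 and 22.6 RPM in ko Ly6Cint cells. Both ko libraries were above both wt libraries, and the change was 2.22 ± 0.49 (adjusted p = 0.0133), where 3.63% of all genes rose. The call was lost without wt replicate 2 (1.70) or ko replicate 2 (1.94). In Ly6C+ cells Fosb was 8.59 and 4.87 RPM in wt and 30.7 and 28.6 RPM in ko, again apart, with a change of 2.03 ± 0.49 that missed the threshold (adjusted p = 0.0626).

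**Figure D2:**
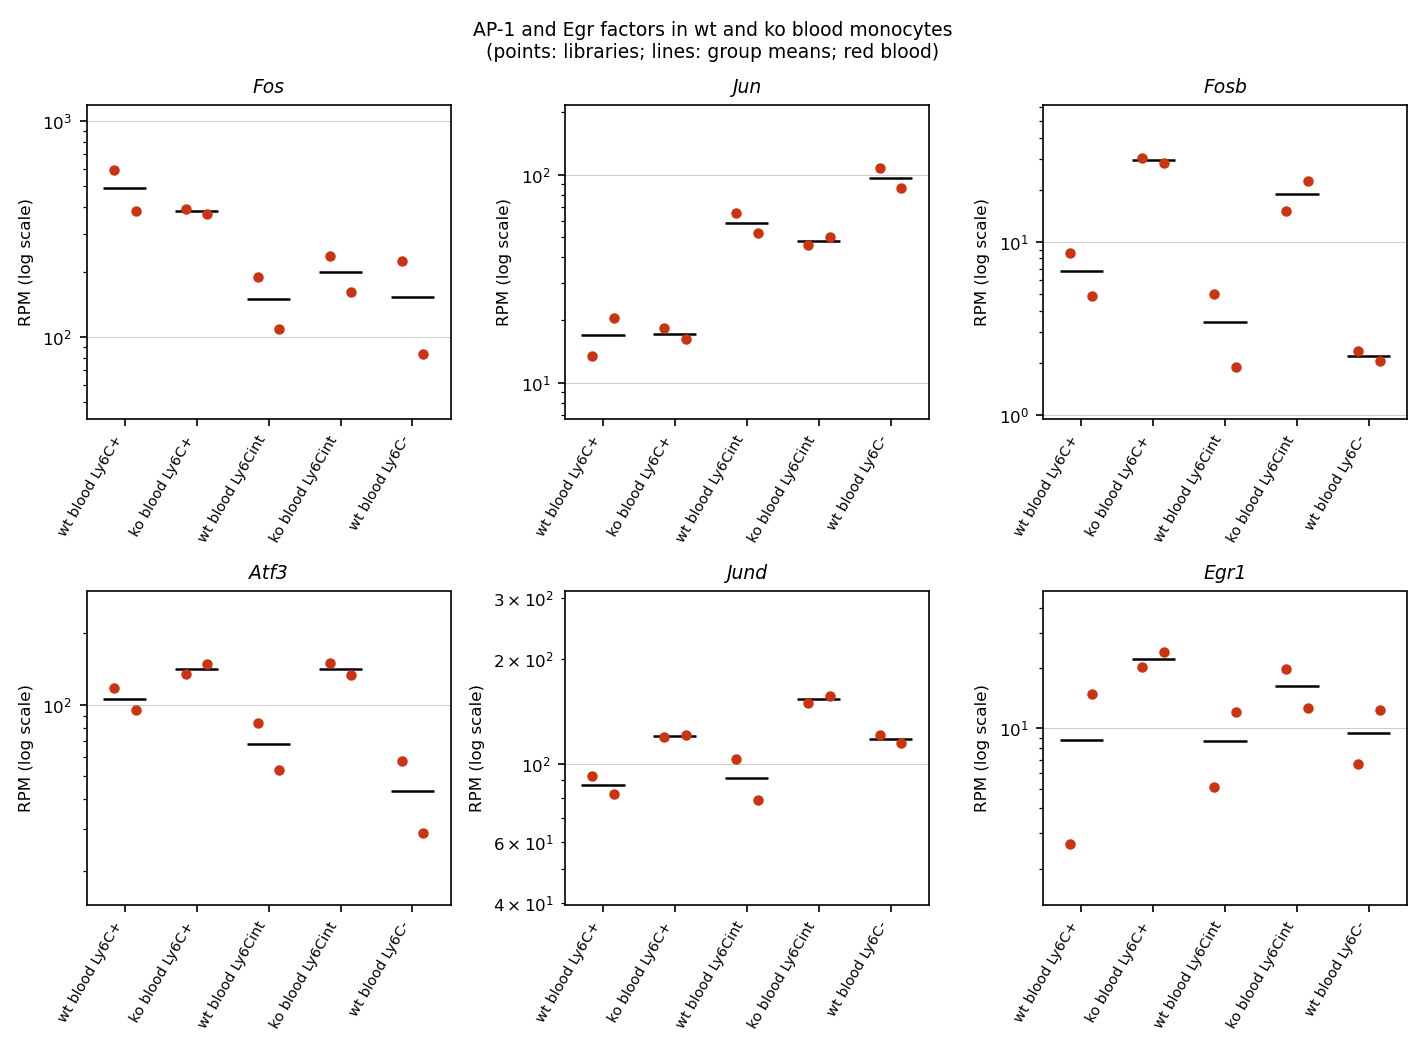
RPM of 6 factors in the 10 blood libraries of the knockout table, by group (x axis) on logarithmic y axes. Points are libraries and lines are group means. Fosb lies higher in the ko libraries (14.99 and 22.6 RPM in Ly6Cint) than in the wt libraries (4.98 and 1.89 RPM).

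Fos did not differ by genotype beyond the spread of the libraries. In ko cells it was 392 and 371 RPM in Ly6C+ and 236 and 161 RPM in Ly6Cint cells, and the intervals of the change were -1.28 to 0.64 and -0.52 to 1.40. Jun was 18.3 and 16.2 RPM and 45.7 and 49.9 RPM, with intervals of -0.65 to 0.75 and -0.98 to 0.42. Junb was 414 and 453 RPM and 479 and 425 RPM, with intervals of -0.43 to 0.51 and -0.54 to 0.39, the narrowest of these 3 genes. Jund, Atf3 and Egr1 lay higher in both ko libraries of each sort than in both wt libraries, without a call. How many of all genes did so was not counted. Jund was 104 and 79.1 RPM in wt and 150.4 and 157 RPM in ko Ly6Cint cells (0.75 ± 0.34, adjusted p = 0.244). Atf3 was 83.6 and 52.96 RPM and 149.7 and 134 RPM (1.08 ± 0.46, adjusted p = 0.219). Egr1 was 2.64 and 14.9 RPM in wt and 20.2 and 24.03 RPM in ko Ly6C+ cells (1.60 ± 0.58, adjusted p = 0.292). In Ly6Cint cells Egr1 was 5.12 and 12.1 RPM in wt and 19.7 and 12.6 RPM in ko.

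In ko against wt Ly6C+ cells limma called 0 of 9 members and 1.26% of all genes. Members at an unadjusted p under 0.05 numbered 2 there, edgeR called 0 and DESeq2 called 1. The step from Ly6C+ to Ly6Cint did not differ between genotypes by any call (0 of 9 members by limma, edgeR and DESeq2, 0 at an unadjusted p under 0.05, and 0.00878% of all genes). Other pathway genes did differ. Nab2, an Egr corepressor, rose in ko Ly6C+ cells from 13.5 to 48.2 RPM (1.77 ± 0.34, adjusted p = 0.0187). In ko Ly6Cint cells Batf3 and Maf, 2 bZIP relatives, rose by 2.01 and 2.37, and Nr4a1 fell from 1569 to 446 RPM (-1.83). Myc rose by 1.79 in Ly6C+ and 2.15 in Ly6Cint cells. Of 23 other immediate early genes 1 rose and 3 fell in ko Ly6Cint cells, where 413 of all 11388 genes tested rose and 308 fell. Of 14 monocyte markers 1 rose and 6 fell there, with sums of 14133 to 14457 RPM in wt and 7214 to 7471 RPM in ko cells, and 4 of 8 tissue macrophage genes rose, with sums of 191 to 200.1 RPM in wt and 550.3 to 978 RPM in ko cells. The part of such cells in the result was not tested.

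Marrow Ly6C+ monocytes transferred into mice held more Fos and Jun family mRNA after 24 h in blood. Fos was 89.4 and 95.97 RPM before transfer and 568 and 999 RPM in the 24 h blood grafts. It rose by 3.01 ± 0.37 (95% interval 2.24 to 3.78, adjusted p = 1.06e-05). Jun went from 35.5 and 49.96 RPM to 351 and 617 RPM (3.44 ± 0.31, adjusted p = 1.44e-07). Junb was 279 and 245 RPM and then 1053 and 867 RPM (1.87 ± 0.18, adjusted p = 4.55e-07). Jund was 15.8 and 16.2 RPM and then 65.3 and 106 RPM (2.31 ± 0.50, adjusted p = 0.00313). None of these 4 genes overlapped between the groups of 2 libraries each. The share of all genes without overlap was not counted. The called members were 4 of 10, where 2.98% of all genes rose. Atf3 was 60.04 and 58.7 RPM and then 95.1 and 80.6 RPM, a change of 0.55 ± 0.40 (adjusted p = 0.401). The median of all genes was -0.53 and 22.4% of the called genes were higher. Quantile scaling brought these to 0.03 and 45.3%, and Fos, Jun, Junb and Jund to 2.98, 3.51, 1.80 and 2.59. Marrow enrichment and blood ficoll preparation cannot be told apart from time and tissue here.

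Transferred cells recovered from spleen at 24 h did not show the rise of Fos. Fos was 42.9 and 40.8 RPM there, below both pretransfer libraries, with a change of -1.13 ± 0.37 that missed the threshold (adjusted p = 0.0850). Junb, at 507 and 475 RPM, rose by 0.91 ± 0.18 (adjusted p = 0.00264), the 1 member of 10 called where 2.89% of all genes rose. That call was lost without pretransfer replicate B (0.81). Jun was 80.2 and 51.3 RPM, with a change of 0.60 ± 0.31 (adjusted p = 0.364). Other immediate early genes rose in both tissues after transfer, 14 of 26 in blood and 8 of 26 in spleen, and 0 fell by limma in either. Nr4a1 rose by 4.16 and 4.07 in blood and spleen, and Dusp2, another MAP kinase phosphatase, by 4.66 and 4.18. These 2 comparisons share the pretransfer libraries. In the spleen comparison the median of all genes was -0.21, and on quantile scaling it was 0.00 and Junb was at 0.92. Hspa1b, which encodes an inducible heat shock protein, rose by 5.48 and 4.39, and 3 of 14 heat shock genes rose in each. Erythroid sums (9 of 10 genes found) were 15.3 to 24.98 RPM before transfer, 2051 to 4386 RPM in 24 h blood grafts and 77.1 to 333 RPM in 24 h spleen grafts. Progenitor sums were 507 to 550.0 RPM before transfer, 0 to 17.5 RPM in blood and 21.5 to 24.98 RPM in spleen, and neutrophil sums 468 to 494, 43.8 to 269 and 69.7 to 79.8 RPM. Of 8 progenitor genes 5 fell in blood and 4 in spleen, and of 12 neutrophil genes 2 fell in each and 1 rose in blood. B cell sums were 38.1 to 40.8 RPM before transfer, 72.7 to 189 RPM in blood and 268 to 582 RPM in spleen grafts. T and NK cell sums were 3.07 to 8.33, 17.5 to 26.7 and 152 to 206 RPM in the same order. In spleen 6 of 9 B cell genes, 5 of 12 T and NK cell genes and 5 of 10 tissue macrophage genes rose. How far this bears on the result was not tested.

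The widest of the 21 tested differences of Fos lay between blood and spleen. In grafts Fos was 568 and 999, then 814 and 731, then 425 and 491 RPM in blood at 24, 36 and 48 h. In spleen it was 42.9 and 40.8, then 67.5 and 117, then 14.02 and 8.76 RPM at the same times. Every spleen library was below every blood library. The ratio of blood to spleen means was 18.7, 8.35 and 40.2 at the 3 times, and averaged over them the log2 change in spleen was -4.16 ± 0.21 (95% interval -4.60 to -3.71, adjusted p = 6.36e-11). In host cells, which were never transferred, Fos was 1700.2 and 1209 RPM in blood and 157 and 280.1 RPM in spleen Ly6C+ cells. It was 839 and 566 RPM in blood and 77.1 and 71.9 RPM in spleen Ly6Cint cells. In Ly6C- cells it was 812 and 392 RPM in blood and 34.6 and 48.2 RPM in spleen. Blood exceeded spleen 6.66-, 9.43- and 14.5-fold by the means of these sorts, again without overlap, and the averaged change was -3.24 ± 0.21 (95% interval -3.68 to -2.79, adjusted p = 9.14e-09).

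**Figure D3:**
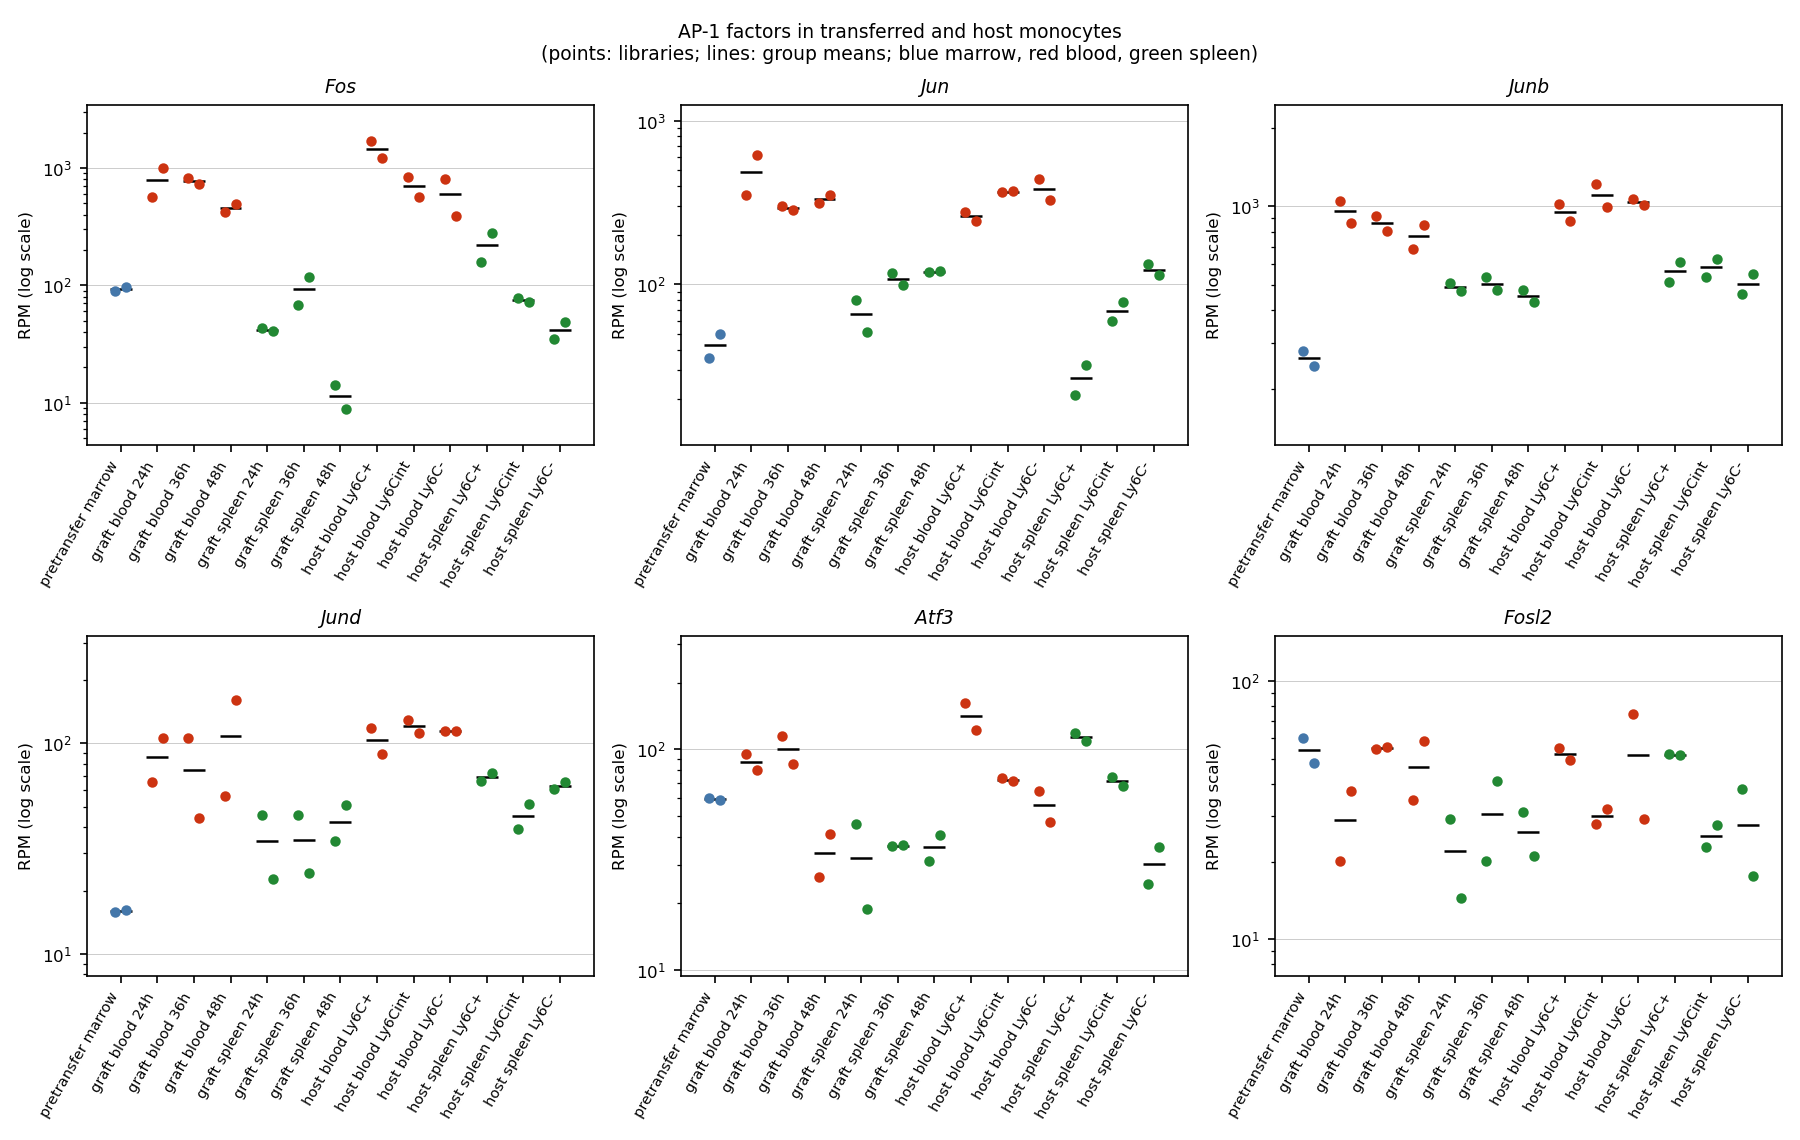
RPM of 6 factors in the 26 libraries of the transfer table, by group (x axis) on logarithmic y axes. Points are libraries, lines are group means, and colours mark pretransfer marrow, blood and spleen. Fos lies at 392 RPM or more in every blood library and at 280.1 RPM or less in every spleen library.

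Jun and Junb were lower in spleen as well. In grafts Jun was 351 and 617, then 302 and 284, then 315 and 351 RPM in blood at the 3 times. In spleen grafts it was 80.2 and 51.3, then 117 and 99.1, then 119 and 120.1 RPM. All spleen values were below all blood values, with a change of -1.92 ± 0.18 (adjusted p = 1.64e-06). In hosts Jun was 278 and 243, then 364 and 369, then 440.0 and 326 RPM in blood Ly6C+, Ly6Cint and Ly6C- cells. In the same sorts of spleen it was 21.03 and 32.4, then 59.6 and 78.0, then 132 and 114 RPM. The change was -2.43 ± 0.18 (adjusted p = 2.84e-08), and the fold of blood over spleen was 9.76, 5.33 and 3.11 in this order of sorts. Junb, in every blood group without overlap above its spleen counterpart, was 1.69- to 2.06-fold higher in blood. Its changes in spleen were -0.82 ± 0.10 in grafts and -0.91 ± 0.10 in hosts (adjusted p = 0.000186 and 5.92e-05).

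In grafts Jund and Atf3 were called as well, so 5 of 10 members fell in spleen where 0.885% of all genes did. Jund was 65.3 and 106, then 106 and 44.3, then 56.1 and 160.4 RPM in blood and 45.6 and 22.8, then 45.6 and 24.1, then 34.2 and 50.8 RPM in spleen at the 3 times. 2 of the blood libraries, at 44.3 RPM and 56.1 RPM, lay inside or near the spleen range, and the change was -1.18 ± 0.29 (adjusted p = 0.0254). Atf3 was 95.1 and 80.6, then 114 and 85.5, then 26.3 and 41.2 RPM in blood and 45.6 and 18.8, then 36.4 and 36.8, then 31.1 and 40.8 RPM in spleen. At 48 h alone the change of Atf3 was 0.11, and its averaged change was -0.95 ± 0.23 (adjusted p = 0.0256). The Jund call was lost without blood 36 h replicate AC (-0.97), blood 48 h replicate B (-0.93), spleen 24 h replicate C (-1.02) or spleen 36 h replicate C (-1.03). The Atf3 call was lost without blood 36 h replicate AC (-0.88) or spleen 24 h replicate C (-0.74). With the replicate label as a block Jund (-1.12, adjusted p = 0.151) and Atf3 (-0.80, adjusted p = 0.205) were not called. Only label B occurs in both graft tissues. In hosts 3 of 10 members fell (Fos, Jun and Junb), where 0.372% of all genes did. In host Ly6C+ cells alone, a split chosen after seeing the data, Junb was not called (-0.76, adjusted p = 0.203). Averaged over the 3 host sorts Jund was at -0.94 ± 0.29 (adjusted p = 0.178). Of the other members, Fosl2 was 55.2 and 49.5 RPM in blood and 52.1 and 51.7 RPM in spleen host Ly6C+ cells, so the ranges overlapped. It was lower in spleen without overlap in host Ly6Cint cells and in 36 h and 48 h grafts (1.80- and 1.79-fold in these grafts). Egr1 and Fosb were lower in spleen without overlap in all 3 host sorts, without a call. How many of all genes were apart in this way, with 2 libraries per group, was not counted. In host Ly6C- cells Fosb was only 6.14 and 1.31 RPM in blood and was listed at 0 in spleen. For Egr1 the fold of blood over spleen was 7.3, 5.93 and 1.98 in Ly6C+, Ly6Cint and Ly6C- hosts, while its grafts overlapped at every time.

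The difference between tissues was not shown to differ between grafts and hosts. For Fos the graft difference less the host difference was -0.92 ± 0.30 (95% interval -1.55 to -0.29, adjusted p = 0.275), and for Jun it was 0.52 ± 0.25 (95% interval -0.00 to 1.04, adjusted p = 0.522). By limma 0 of 10 members and 0.132% of all genes were called in that test, and 1 member had an unadjusted p under 0.05. The share of higher genes among those called was 75.0% there and 62.5% on quantile scaling. For grafts, spleen against blood, the median of all genes was 0.16 with 76.6% of the called genes higher. These were -0.01 and 56.8% on quantile scaling, where Fos was at -4.02 and Jun at -1.88.

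Spleen cells were also lower in 9 of 26 other immediate early genes in grafts and in 9 of 26 in hosts, and 0 were higher by limma in either. The medians of the list were -0.51 and -0.55. Zfp36, which encodes an RNA-binding protein that promotes mRNA decay, fell by 1.53 ± 0.17 in grafts and 1.28 ± 0.17 in hosts. Dusp1 fell by 3.49 and 3.44, and Ier2, a nuclear immediate early protein, by 0.92 and 0.91. Nr4a1 was not called, at -0.17 and -0.43. Of the 27 upstream kinases and regulators 0 were called in either direction by limma in either comparison. Of the 23 tested bZIP relatives 1 rose and 1 fell in grafts, and 1 fell in hosts.

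Markers of other cells and of stress differed between these tissues. Of 7 erythroid genes 3 fell and 1 rose in spleen grafts. Erythroid sums were 942 to 7823 RPM over the blood groups and 55.7 to 2233 RPM over the spleen groups. B cell sums were 38.6 to 189 RPM in blood and 94.7 to 867 RPM in spleen, and T and NK cell sums 3.51 to 50.8 and 38.1 to 403 RPM. Spleen grafts at 36 h stood apart, with tissue macrophage sums of 1389 to 4387 RPM and platelet sums of 84.2 to 1245 RPM. With the 36 h grafts left out, an alternative chosen after seeing the data, 4 of 5 members were still called and Atf3 was not (-0.72). Monocyte marker sums were 14622 to 31540 RPM over all groups of the table. The heat shock gene Hspa1a was 64.1 RPM on average in host blood and 3.94 RPM in host spleen (-3.65 ± 0.44, adjusted p = 0.000103). In grafts it was 102 RPM in blood and 48.6 RPM in spleen, without a call. At 48 h, when Fos differed most, tissue macrophage sums were 280 to 351 RPM in spleen and 293 to 396 RPM in blood grafts, and all 10 platelet genes were listed at 0 in spleen. Erythroid sums at 48 h were 75.8 to 99.0 RPM in spleen and 942 to 7823 RPM in blood grafts. T and NK cell sums were 48.6 to 61.8 RPM in spleen and 3.51 to 26.3 RPM in blood grafts at that time. B cell sums were 118 to 172 RPM in spleen and 38.6 to 159 RPM in blood grafts. In hosts 2 of 7 erythroid genes fell in spleen and 0 genes of the B cell, T and NK cell, platelet and tissue macrophage lists were called by limma. The part of transcripts of other cells and of stress in the result was not tested.

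**Figure D4:**
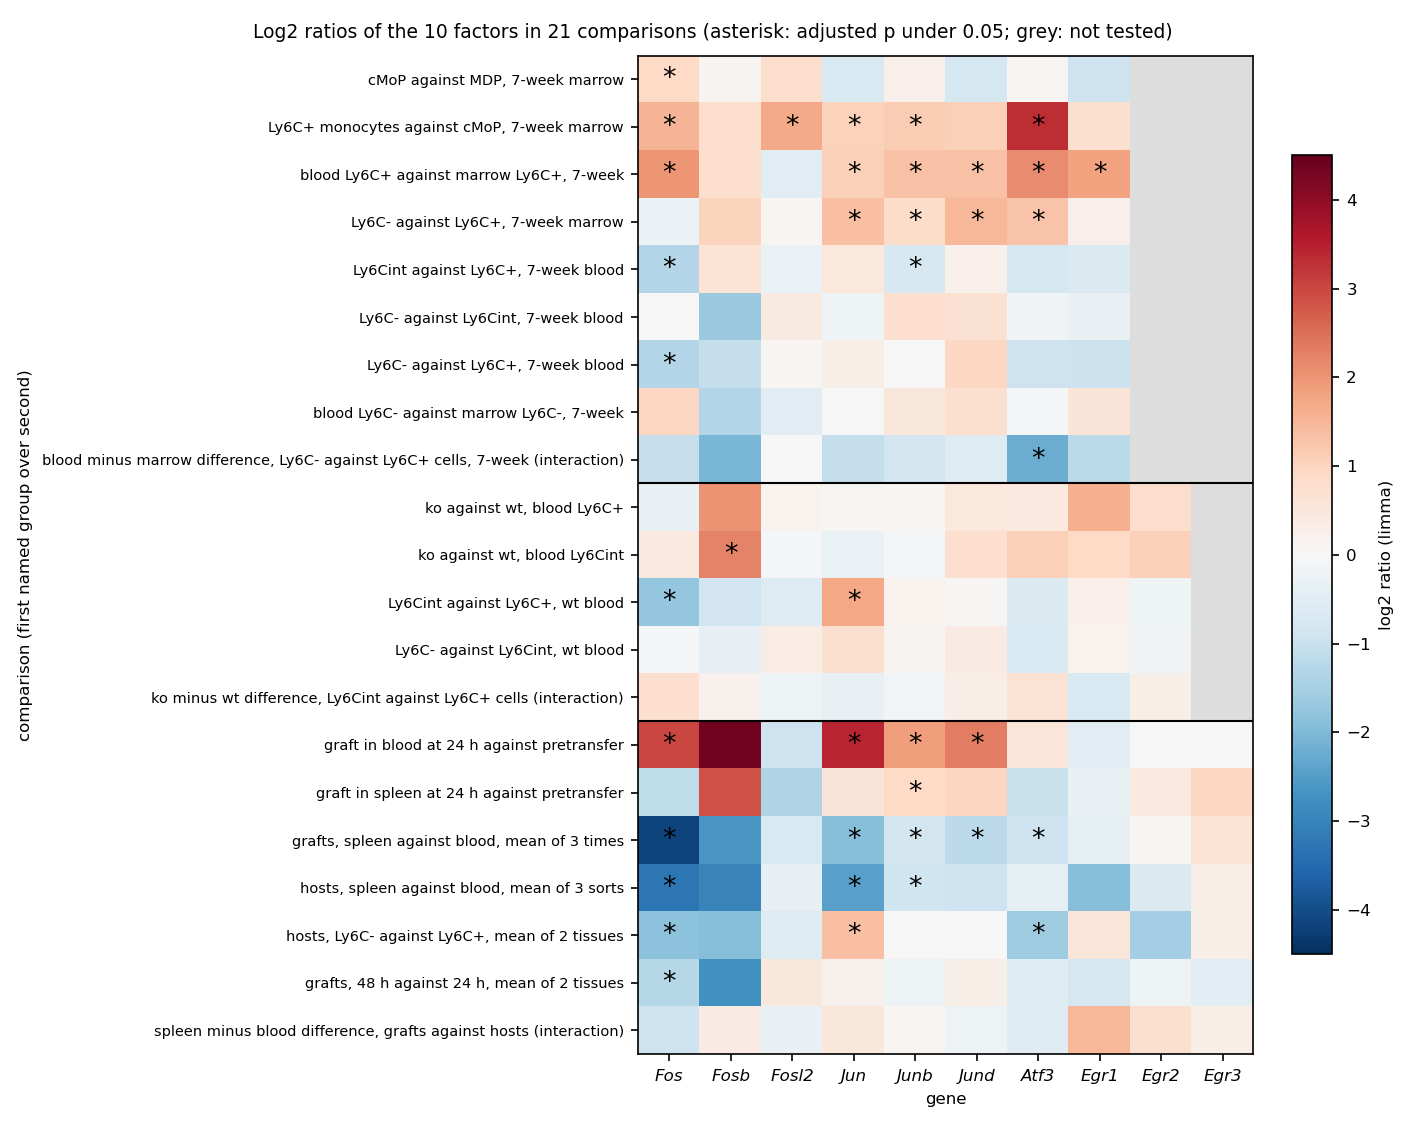
Log2 ratios of the 10 factors (x axis) in the 21 comparisons (y axis), from blue for lower to red for higher in the first named group. An asterisk marks an adjusted p under 0.05 and grey a gene not tested. Fos is lower in spleen than in blood in grafts (-4.16) and hosts (-3.24), and Jun (-1.92 and -2.43) and Junb (-0.82 and -0.91) are lower with it.

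Among host cells, Ly6C- monocytes held less Fos and Atf3 and more Jun than Ly6C+ monocytes, averaged over both tissues. The changes were -1.84 ± 0.26 for Fos (adjusted p = 4.73e-05), -1.62 ± 0.28 for Atf3 (adjusted p = 0.000569) and 1.36 ± 0.22 for Jun (adjusted p = 0.000184). Of all genes 3.82% fell and 3.41% rose. Atf3 was 162 and 121, then 73.6 and 71.9, then 64.4 and 46.9 RPM in blood Ly6C+, Ly6Cint and Ly6C- cells. In spleen it was 119 and 108, then 74.5 and 68.4, then 24.5 and 35.9 RPM, so the order of the sorts was the same in both tissues and no neighbours overlapped. By tissue, fits chosen after seeing the data, Fos was called in blood (-1.34) and spleen (-2.33). Jun was called in spleen (2.19) and not in blood (0.54), and Atf3 was called in spleen (-1.90) and not in blood (-1.33). The tissues were not tested against each other for these changes. Junb was not called between the sorts (-0.01 ± 0.13, 95% interval -0.28 to 0.25). Of 26 other immediate early genes 8 rose in Ly6C- host cells and 0 fell by limma, among them Nr4a1 (1.54), Nfkbiz (1.94) and Klf4 (1.17). Neutrophil sums were 131 to 144 RPM in blood and 114 to 187 RPM in spleen Ly6C+ cells, and 2.63 to 12.7 and 14.5 to 18.8 RPM in Ly6C- cells. B cell sums were 64.9 to 91.6 RPM in blood and 94.7 to 105 RPM in spleen Ly6C+ cells, and 106.5 to 119 and 330 to 454 RPM in Ly6C- cells. Of 12 neutrophil genes 1 was called lower, and 0 of 9 B cell genes were called by limma. The part of such cells in the result was not tested.

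From 24 to 48 h after transfer Fos fell in the grafts, by 1.27 ± 0.26 over both tissues (adjusted p = 0.00534), the 1 member of 10 called where 4.03% of all genes fell. In blood alone the change was -0.72 and was not called, and in spleen alone it was -1.82. At 36 h spleen Fos was 67.5 and 117 RPM, above both other times, so the levels in spleen did not move in 1 direction. Jun did not pass the test (0.20 ± 0.22, 95% interval -0.25 to 0.65), nor did Junb (-0.22 ± 0.13). Tissue macrophage, B cell and T and NK cell markers also fell over this time, 4 of 10, 2 of 9 and 1 of 12 tested genes, while 1 tissue macrophage gene rose. Their part in the result was not tested.

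The ratio of Fos to Jun within a library is given as a description without a test. Gene lengths cancel when the ratio is compared between libraries. In the 7-week table it was 1.09 to 2.59 in cMoP, 2.05 to 3.86 in marrow Ly6C+ and 0.497 to 1.18 in marrow Ly6C- cells. In 7-week blood it was 2.66 to 9.58 in Ly6C+, 1.26 to 1.70 in Ly6Cint and 1.00 to 2.78 in Ly6C- cells. In wt blood of the knockout table it was 18.8 to 43.9, 2.07 to 2.91 and 0.970 to 2.09 in the same order. In ko blood it was 21.5 to 22.8 in Ly6C+ and 3.22 to 5.18 in Ly6Cint cells. Host blood ran from 4.97 to 6.11 in Ly6C+ over 1.53 to 2.31 in Ly6Cint to 1.21 to 1.85 in Ly6C- cells. Host spleen ran from 7.46 to 8.64 over 0.921 to 1.29 to 0.262 to 0.425. Among the monocyte sorts of each of these settings Ly6C+ cells had the highest median. The Ly6C+ and Ly6C- ranges overlapped in 7-week blood and in none of the other settings listed here with both sorts. In 7-week blood the Ly6C- range also held all of the Ly6Cint range. In 7-week marrow cMoP overlapped Ly6C+ cells. Spleen grafts were at 0.536 to 0.795 at 24 h, 0.577 to 1.19 at 36 h and 0.073 to 0.118 at 48 h. The 48 h spleen grafts were the lowest of the 28 groups. Blood grafts were at 1.615 to 1.617, 2.57 to 2.70 and 1.35 to 1.40 at these times, and pretransfer cells at 1.92 to 2.52. MDP, at 0.486 to 0.673, were the lowest of the 7-week table together with marrow Ly6C- cells.

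**Figure D5:**
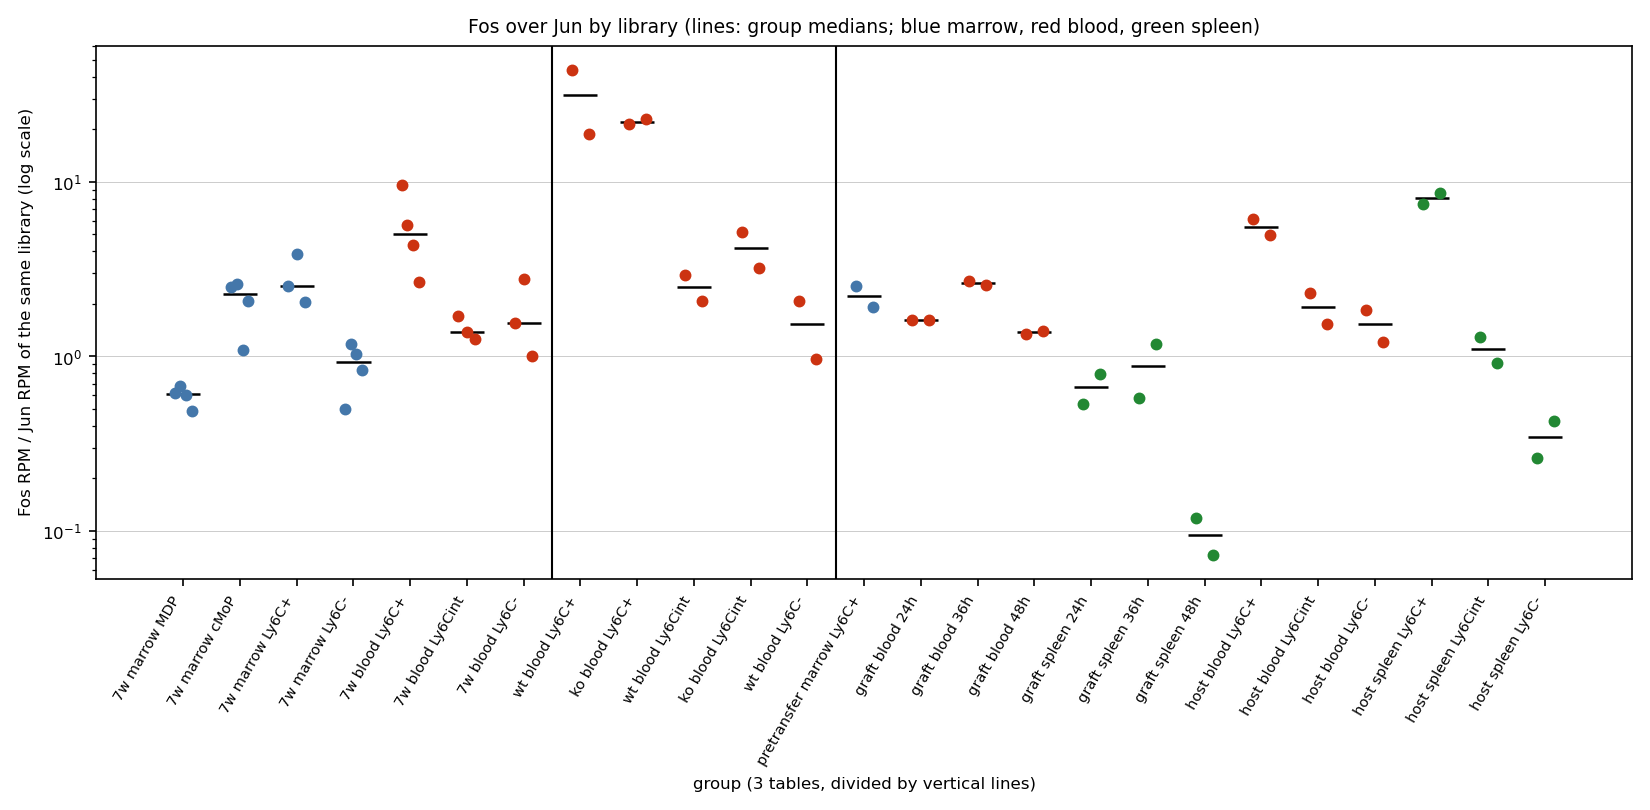
Ratio of Fos to Jun RPM in each library (logarithmic y axis) by group (x axis) for the 3 tables, with 8-week marrow not drawn. Points are libraries and lines are group medians. Among monocyte sorts Ly6C+ cells have the highest median within each tissue (host spleen at 7.46 to 8.64), cMoP overlap marrow Ly6C+ cells, and 48 h spleen grafts lie lowest (0.073 to 0.118).

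The Egr genes were low throughout. Egr1 in the 7-week table was 2.56, 3.29, 2.57 and 3.79 RPM in MDP, 0.805, 0.869, 1.82 and 1.10 RPM in cMoP, 2.49, 3.27, 1.17 and 7.79 RPM in marrow Ly6C-, 5.84, 12.1 and 4.18 RPM in blood Ly6Cint and 4.05, 6.43 and 5.34 RPM in blood Ly6C- cells. Blood Ly6C+ cells had the highest mean and the widest spread. Egr2 had no read in 16 of the 25 libraries, and its highest value was 3.92 RPM, on 6 reads. Egr3 had no read in any of them, which allows up to 0.58 to 3.34 RPM depending on the library. In the knockout table Egr2 was 0.732 and 1.51 RPM in wt and 3.57 and 3.22 RPM in ko Ly6Cint cells, without a call. It overlapped between genotypes in Ly6C+ cells. Its highest transfer values were 11.4 RPM in 36 h blood graft replicate B and 10.1 RPM in host blood Ly6C+ replicate A. In the transfer table Egr1 had its highest value, 57.8 RPM, in 24 h blood graft replicate B. It was 54.3 and 19.3 RPM in host blood Ly6C+ cells and was listed at 0 in 1 library of each of 4 graft groups. Fosb was as uneven there: 1 spleen graft library at 24 h was at 77.1 RPM and all other spleen grafts were listed at 0. Its changes of 4.34 ± 1.52 after transfer to blood and -2.61 ± 0.88 between spleen and blood grafts were not called.

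Across the 25 libraries of the 7-week table the members moved together to different degrees, given here as descriptions over libraries that share groups. On the log2 scale Fos and Junb correlated at 0.891, Fos and Atf3 at 0.882, and Jun and Jund at 0.917, while Fos and Jun correlated at 0.685. Over the 16 knockout libraries Fos and Junb were at 0.898 and Fos and Jun at 0.171. Over the 26 transfer libraries the same pairs were at 0.770 and 0.631. By the Pearson correlation over the 25 libraries, the genes most like Fos were Nkiras2 (0.940), Il1rn (0.940) and Alox5ap (0.939), and over the transfer libraries these were at 0.447, 0.041 and 0.034. Most like Junb was Zfp36, at 0.966 and 0.846. Most like Jund was Dusp1, at 0.894 and 0.722. Most like Atf3 was Slamf8, at 0.980 and 0.240, and most like Egr1 was Rfx2, at 0.844 and 0.429.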

How the data were processed

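Polyadenylated RNA of sorted cells was captured on oligo-dT beads, per the labels' protocols. HISAT 0.1.5, bcl2fastq, SAMtools, HOMER and build mm9 are named in the submitters' processing notes, and annotation and counting options are not given in the sources used here. The authors deposited normalized signal values in the 7-week and knockout tables, from which whole reads were recovered for 100% of values (tolerance 0.1 read). The deposited transfer table holds a score, values scaled to a common total and rounded. Values were divided to RPM, in the 7-week and knockout tables on an assumed library total of 10000000. limma 3.58.1 (R 4.3.3) was fitted on log2(RPM + 1) with a trend, 1 mean per group and all libraries of a table, on 11373, 11388 and 12096 genes, and was tested on simulated data. Alternatives were pseudocounts of 0.25 and 5 RPM, no filter, quantile scaling, scaling to the listed genes, array weights, the compared groups alone, edgeR 4.0.16 and DESeq2 1.42.0 on recovered reads, a replicate block and each library left out. Splits by time, sort or tissue were chosen after seeing the data. Over all pairs of groups, same-numbered libraries did not deviate together on the median (residual correlation -0.004, 0.004 and 0.007). Single pairs ran from -0.299 to 0.385, -0.322 to 0.411 and -0.035 to 0.077 in the 7-week, knockout and transfer tables. In wt blood replicate 1 exceeded replicate 2 in every sort for Fos and Atf3, but not for Jun. Host blood replicate A exceeded B for Fos in every sort. Numbers were not taken as pairs in the main fits and entered only as the replicate block. Members and gene lists were chosen with earlier results of these data known. All 10 members are named whatever their test, and of each list at most the 4 called genes of smallest p per comparison, the leading genes by likeness for Fos, Junb, Jund, Atf3 and Egr1, and Cebpb as the targeted gene. Outside that rule, and with their values known, Myc from cMoP to Ly6C+ cells, Klf4 between blood and marrow, Nr4a1 and Ier2 between spleen and blood, and Hspa1a were added. Intervals are 95%, and limits from 3 reads cover counting error only.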

Additional observations from a re-analysis of the deposited data

Results flagged for a closer look

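In 7-week marrow 4 values, from 3 libraries, stood far from the others of their group, among 35 sets of values examined. Chance alone sets about 1 in 20 such sets apart. Jun was 13.9 RPM and Jund 19.7 RPM in cMoP replicate 3, where the other cMoP libraries were at 6.38 to 7.45 and 2.03 to 3.83 RPM. Both values come from the same library, which also held the highest Fosb of its group, 6.36 RPM. Atf3 was 2.70 RPM in MDP replicate 4 against 0 to 0.394 RPM in the others. Egr2 was 3.92 RPM in marrow Ly6C- replicate 2. The difference of Atf3 between the Ly6C- and Ly6C+ steps from marrow to blood, -2.23 on the log2 scale, passed its own test, as given above.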

How the results depend on the processing

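Of 40 called changes of members, 20 were called under every alternative run, and 80 of 689 alternatives lost a call. Atf3, spleen against blood grafts, turned to 0.11 in the 48 h grafts alone. Numbers of members called changed by over 1.5 times as follows, with the main number in parentheses, and the cause was not tested. cMoP against MDP (1): 0 with a pseudocount of 5 RPM, 2 with quantile scaling, edgeR or DESeq2, 4 with array weights or the compared groups alone. Blood Ly6Cint against Ly6C+ (2): 1 without a filter, with quantile or listed-gene scaling, the compared groups alone, edgeR or DESeq2. Blood Ly6C- against Ly6Cint (0): 1 with array weights. Blood Ly6C- against Ly6C+ (1): 2 with a pseudocount of 5 RPM, quantile scaling or DESeq2, 3 with edgeR. Blood against marrow Ly6C- (0): 1 with a pseudocount of 5 RPM, array weights, edgeR or DESeq2. The difference of the blood and marrow steps (1): 0 with a pseudocount of 0.25 RPM, 2 with 5 RPM or listed-gene scaling, 5 with quantile scaling, 4 with edgeR or DESeq2. Genotype in Ly6C+ cells (0): 1 with a pseudocount of 5 RPM, array weights, the compared groups alone or DESeq2. Genotype in Ly6Cint cells (1): 0 with a pseudocount of 0.25 RPM or the compared groups alone. Ly6Cint against Ly6C+ in wt blood (2): 1 with a pseudocount of 0.25 RPM, no filter, array weights, the replicate block or DESeq2. Spleen graft against pretransfer (1): 0 with the compared groups alone. Spleen against blood grafts (5): 3 with array weights, the compared groups alone, the replicate block, 36 h alone or 48 h alone. Spleen against blood hosts (3): 6 with array weights or the compared groups alone. Host Ly6C- against Ly6C+ (3): 5 with array weights, 1 in blood alone. Grafts at 48 against 24 h (1): 0 with array weights or the compared groups alone. Calls were also lost where the number moved less: for blood against marrow Ly6C+, Jund with a pseudocount of 0.25 RPM, no filter or array weights, Jun with array weights or the compared groups alone, and Egr1 with the compared groups alone; for marrow Ly6C- against Ly6C+, Jund with array weights and Atf3 with a pseudocount of 0.25 RPM; for host tissues, Junb in Ly6C+ cells alone.

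Leaving out 1 library at a time gave 0 to 2 members for cMoP against MDP, 4 to 6 for Ly6C+ against cMoP, 3 to 6 for blood against marrow Ly6C+, 2 to 4 for marrow Ly6C- against Ly6C+, 1 to 2 for blood Ly6Cint and for blood Ly6C- against Ly6C+, and 0 to 1 for Ly6C- against Ly6Cint and for blood against marrow Ly6C-. It gave 1 to 3 for the difference of those steps, 0 to 1 for Ly6Cint against Ly6C+ in wt blood and for genotype in Ly6Cint cells, 0 to 3 for spleen graft against pretransfer, 3 to 5 for spleen against blood grafts and 1 to 2 for 48 against 24 h. Where that left 1 library in a group, it was assumed to vary like the other groups. The replicate block changed the number in 2 of 19 comparisons, given above. No paired analysis was possible for the pretransfer comparisons because those groups share fewer than 2 replicate labels. In the transfer table depth is unknown and limits what a value of 0 shows.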

Other observations

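The 8-week marrow libraries of the knockout table enter no comparison. Fos there was 6.61 and 12.9 RPM in MDP, 22.3 and 34.97 RPM in cMoP and 43.6 and 82.4 RPM in Ly6C+ monocytes, with each stage above the one before. Atf3 was 2.48 and 1.17, then 6.13 and 1.25, then 42.9 and 26.6 RPM in the same order. Junb was 30.6 and 39.9, then 44.2 and 56.2, then 109 and 88.3 RPM. Jun was 18.6 and 25.02, then 19.3 and 23.7, then 5.52 and 12.5 RPM. Jun was thus lower in Ly6C+ cells than in cMoP without overlap, the opposite direction to the 7-week table. Neutrophil marker sums were 3795 to 4689 RPM in MDP and 3446 to 4207 RPM in cMoP against 580.4 to 590.4 RPM in Ly6C+ cells. Fosl2, which is a Fos relative, was 8.68 and 5.08, then 7.00 and 24.4, then 34.97 and 37.5 RPM. The ratio of Fos to Jun was 0.356 to 0.516 in MDP, 1.16 to 1.47 in cMoP and 6.6 to 7.89 in Ly6C+ cells.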
